A study of Mus musculus with 16 samples.

Results

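The Wnt pathway genes described here are 42 genes for Wnt ligands, their receptors, the secreted proteins that modulate them, the relay inside the cell and its feedback and target genes, followed in mesenchymal stromal cells of mouse muscle after injection of CGRP. They were taken from the gene count table by their symbols, and 36 of the 42 had at least 10 reads in 4 or more libraries. Of these 36, 35 also passed the filter on low counts and were tested among 13949 genes, out of 52997 symbols in the table.

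Mesenchymal stromal cells (mSC) are the connective tissue cells between the fibres of skeletal muscle. They were sorted from hindlimb muscle of C57BL/6 mice aged 8 weeks that had received CGRP (calcitonin gene-related peptide, a neuropeptide of sensory nerve endings) or phosphate-buffered saline (PBS) into the peritoneum. There were 4 groups, cells taken 4 h after CGRP, 4 h after PBS, 8 h after CGRP and 8 h after PBS, with 4 biological replicates in each and 1000 sorted cells in a library. All mice were of the same strain and age, and the labels give no engineered allele. The sources used here do not give the sort markers, the dose of CGRP, or whether a replicate was a mouse or a pool.

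Wnt ligands are secreted glycoproteins that bind Frizzled receptors together with the co-receptors Lrp5 or Lrp6, after which beta-catenin escapes degradation and acts with TCF/LEF factors on target genes. Other ligands, Wnt5a among them, signal through Ror and Ryk receptors to the cytoskeleton and to calcium without beta-catenin. In muscle, stromal cells are a source of Wnt ligands and modulators for satellite cells and fibres, and the pathway is also known for its part in fibrosis and adipogenesis.

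The libraries held 6373713 to 10011920 counts and 21138 to 25579 detected genes, with the most genes in PBS 4 h replicate 4, PBS 8 h replicates 4 and 1 and CGRP 4 h replicate 3. The summed level of 12 mSC markers was 152451 to 161676 CPM (counts scaled to the library total) after CGRP and 173880 to 199281 CPM after PBS at 4 h, and 147626 to 169727 CPM after CGRP and 171928 to 184841 CPM after PBS at 8 h. Endothelial Pecam1 and Cdh5 did not exceed 1.88 CPM in any library, while 11 endothelial markers together summed to 81.7 to 145 CPM. The 10 lymphocyte markers summed to at most 2.28 CPM in any library and 10 myeloid markers to at most 11.8 CPM. The satellite cell gene Myf5 was at 0 in all 16, but 8 satellite cell and myoblast markers together were not. At 4 h their sum was 351 to 441 CPM after CGRP and 260 to 423 CPM after PBS. At 8 h it was 316 to 518 CPM after CGRP and 238 to 260 CPM after PBS. Only 3 of the 8, Chodl, Des and Sdc4, passed the filter on low counts. Their log2 fold changes at 8 h were 0.86 ± 0.19 for Sdc4 (edgeR adjusted p = 0.0122), 0.07 ± 0.18 for Des and -1.11 ± 0.86 for Chodl. The share of counts assigned to Gm10800 reached at most 1.01% in 13 libraries, but was 1.83%, 1.77% and 2.45% in replicates 1, 2 and 3 of the PBS 8 h group. Its part in the 8 h results was not tested.

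The main difference was a lower level of many Wnt pathway genes 4 h after CGRP. At that time 9 of 35 members fell and 1 rose (25.7% and 2.86%), where 8.37% of all tested genes fell and 7.84% rose at an adjusted p under 0.05 in edgeR's quasi-likelihood test. The members that fell were the ligand gene Wnt5a, the receptor genes Fzd2 and Fzd4, the modulator genes Rspo3 and Dkk2, the transcription factor genes Tcf7l1 and Tcf7l2, and the inhibitor genes Nkd2 and Apcdd1, while the receptor gene Ror1 rose. The log2 fold change was below 0 for 29 of 35 members (82.9%) and for 7005 of 13949 genes, with a median of -0.28 over the members and -0.00 over all genes. For 9 of 35 members (25.7%) every CGRP library lay below every PBS library, against 9.9% of all genes, and for none did every CGRP library lie above, against 8.95% of all genes. The number called at 4 h was 6 without CGRP 4 h replicate 1, 5 without PBS 4 h replicate 2 and 5 without PBS 4 h replicate 4. Over all genes 2262 were called with every library, and 1733, 1680 and 1934 in these fits, in the same order. The members were chosen with earlier results of these data known, so their shares beside those of all genes are a description only. In these bulk samples, fewer cells of a type and less RNA per cell cannot be told apart.

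At 8 h fewer members differed. Of the 35, 3 fell (Wnt5a, Fzd4 and the co-receptor gene Lrp6, 8.57%) and 1 rose (the ligand gene Wnt2, 2.86%), against 3.67% and 5% of all genes. The median log2 fold change was -0.14 over the members and -0.02 over all genes, and 23 of 35 were below 0 (65.7%). Every CGRP library lay below every PBS library for 3 members (Fzd4, Lrp6 and Sfrp1), against 6.75% of all genes, and above for none, against 8.08%. The number called at 8 h was 1 without CGRP 8 h replicate 4 or PBS 8 h replicate 1 or 4, and 2 without PBS 4 h replicate 1 or 4, CGRP 8 h replicate 1 or PBS 8 h replicate 2 or 3. Over all genes 1210 were called with every library, and 676, 749 and 696 in the fits with 1 member called. In the fits with 2 it was 1168, 1196, 577, 1040 and 789, in the order named. Without the 4 libraries with the most detected genes, left out together, 4 members were called at 4 h and 0 at 8 h. Over all genes that fit called 1859 at 4 h and 191 at 8 h. It kept only replicates 2 and 3 of PBS at 8 h against all CGRP libraries of that time, while each 4 h group lost 1 library. At 4 h Fzd4, Ror1, Dkk2, Tcf7l1, Tcf7l2 and Apcdd1 then lost their calls (adjusted p 0.0790 to 0.158), and at 8 h Wnt5a was at -0.25 (adjusted p 0.484). With no filter on low counts, Apcdd1 (edgeR adjusted p 0.0586) and Tcf7l2 (0.0961) missed the threshold at 4 h. Wnt2 (0.119) and Lrp6 (0.136) then missed it at 8 h, while Wnt9a (0.00816) and Rspo2 (0.0388) passed it at 4 h.

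**Figure D1:**
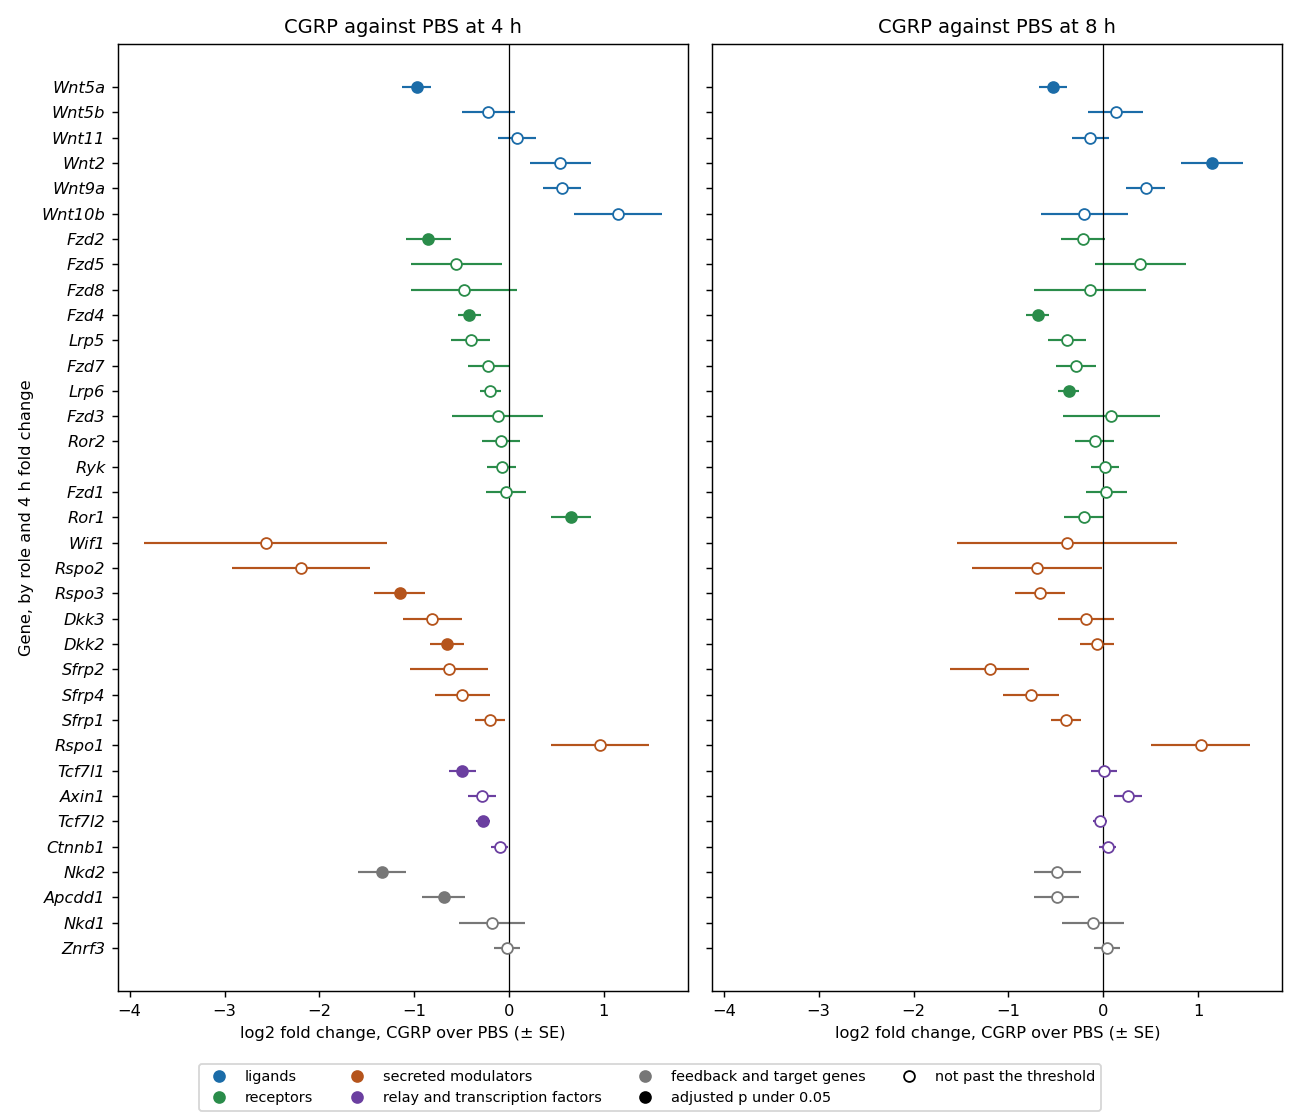
Log2 fold change of CGRP over PBS for the 35 tested genes at 4 h (left) and 8 h (right), with bars of ± SE, ordered by role and by the 4 h value. Filled points passed the test: at 4 h 10 are filled, with Ror1 alone to the right of 0, and at 8 h 4 are filled, with Wnt2 alone to the right.

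The short stretch of genome at which transcription of a gene starts is shown for 3 members whose level differed, from RefSeq (GRCm38.p6, 250 bases before to 50 after the start site). They are Fzd4, which fell at both times, Tcf7l2, which fell at 4 h, and Ror1, which rose at 4 h. CGRP receptors act through cyclic AMP, and the factor CREB binds a cyclic AMP response element (CRE), so CRE letters were searched on both strands together with a TCF/LEF motif. Capitals mark the short CRE motif TGACG or its reverse complement CGTCA.
Fzd4 promoter, chr7:89404116-89404415, plus strand: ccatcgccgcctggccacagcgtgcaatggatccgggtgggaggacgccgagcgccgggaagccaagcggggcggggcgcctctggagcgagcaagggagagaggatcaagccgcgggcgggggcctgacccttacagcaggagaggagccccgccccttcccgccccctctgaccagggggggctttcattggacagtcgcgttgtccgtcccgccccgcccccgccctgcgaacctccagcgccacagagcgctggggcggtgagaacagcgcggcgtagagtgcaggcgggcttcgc
Tcf7l2 promoter, chr19:55741560-55741859, plus strand: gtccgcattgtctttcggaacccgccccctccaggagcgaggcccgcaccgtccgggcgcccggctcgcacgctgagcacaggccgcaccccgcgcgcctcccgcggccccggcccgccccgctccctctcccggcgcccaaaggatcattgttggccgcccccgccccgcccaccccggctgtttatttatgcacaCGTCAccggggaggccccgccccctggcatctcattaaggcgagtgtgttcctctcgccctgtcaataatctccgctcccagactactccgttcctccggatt
Ror1 promoter, chr4:100095541-100095840, plus strand: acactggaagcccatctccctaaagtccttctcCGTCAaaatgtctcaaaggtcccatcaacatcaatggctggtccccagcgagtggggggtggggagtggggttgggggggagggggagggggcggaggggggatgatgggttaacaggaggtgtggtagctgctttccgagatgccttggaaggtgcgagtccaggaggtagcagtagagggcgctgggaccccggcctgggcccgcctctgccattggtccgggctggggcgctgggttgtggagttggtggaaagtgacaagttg

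The letters CGTCA began 53 bases before the start site of Tcf7l2 and 217 bases before that of Ror1, and neither orientation occurred in the Fzd4 window. Of the members called at 4 h or 8 h, Wnt2, Dkk2, Tcf7l1 and Nkd2 also had a RefSeq window, not shown, and neither orientation occurred in theirs. The table gave a second Tcf7l2 promoter, chr19:55895071-55895370, in which neither orientation occurred. The table gave 36 promoters for 27 of the 42 members. TGACG or CGTCA was in 7 of the 36, from 6 of 27 members (Wnt10b, Wnt11, Ror1, Sfrp5, Ctnnb1 and Tcf7l2), and in 20.8% of 32851 mouse promoters of the same length. The full CRE, TGACGTCA, which holds both short forms and reads the same on both strands, was in none of the members' windows and in 1.79% of all promoters. The TCF/LEF motif CTTTGAT or ATCAAAG was in 2 of the 36 promoters, from 2 of 27 members (Wnt5b and Wnt11), and in 3.73% of all promoters. A match describes the letters and is no evidence of binding.

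Levels were compared between genes only as TPM, which divides by exon length before scaling to the library total. Over the 16 libraries the most abundant ligand gene was Wnt2, with a mean of 33.8 TPM and a range of 15.7 to 69.8 TPM. This order differed by group: 8 h after PBS, Wnt5a averaged 23.8 ± 6.54 TPM and Wnt2 20.5 ± 4.34 TPM, and 4 h after PBS they were close, at 24.98 ± 3.55 and 26.1 ± 5.66 TPM (SD, n = 4 each), so in the PBS groups neither gene stood above the other beyond the spread. The most abundant receptor gene was Fzd4, with 37.4 TPM (26.6 to 59.4). Among the secreted modulators it was the inhibitor gene Sfrp4, with 216 TPM (121 to 356). Tcf7l2 led the relay and transcription factors with 73.6 TPM (65.2 to 85.9), and Znrf3 the feedback genes with 16.5 TPM (12.9 to 20.4). The secreted inhibitor genes Sfrp4, Dkk2 (153 TPM) and Sfrp2 (129.8 TPM) were above all other members in mean TPM. Of the 6 members under the read rule, Wnt4 had 89 reads in all 16 libraries together, Fzd6 33, Lef1 30, Wnt16 27, Rnf43 24 and Sfrp5 5. Lef1, the TCF/LEF factor of many developing tissues, was thus close to undetected while Tcf7l2 averaged 73.6 TPM.

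**Figure D2:**
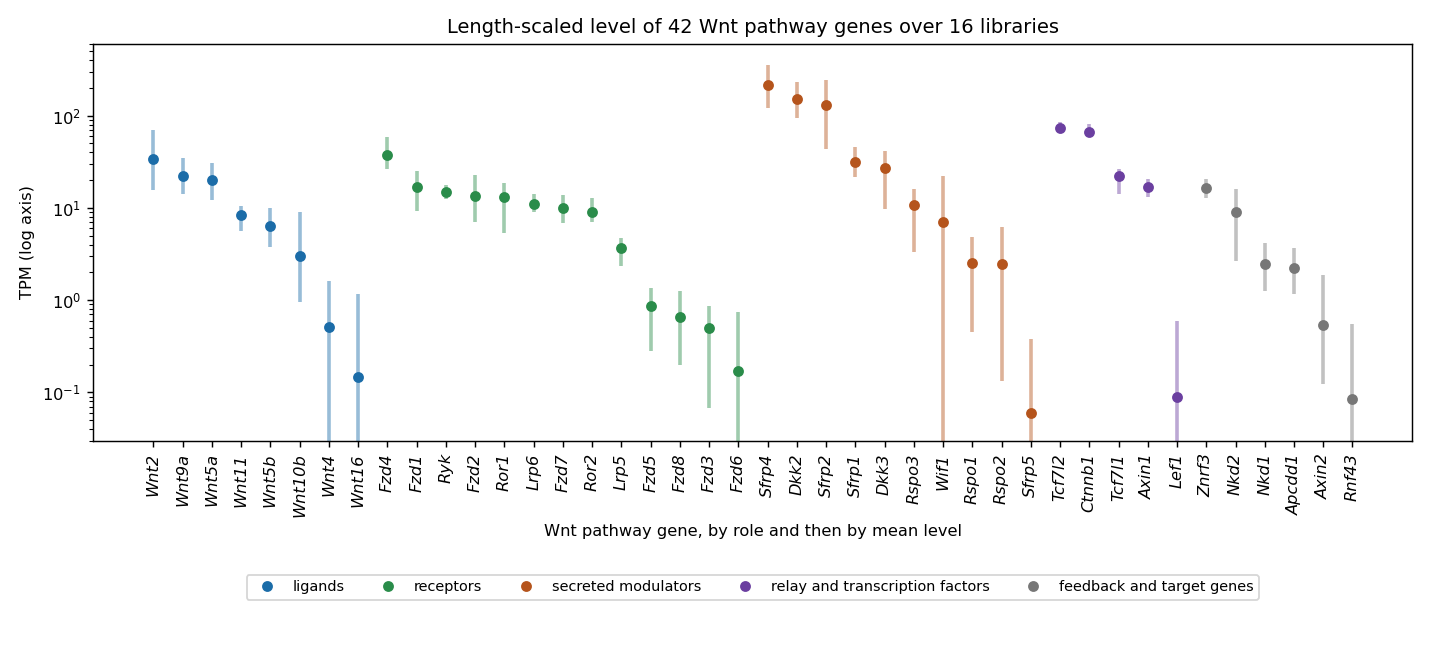
TPM on a log axis of all 42 genes by role, with points for the mean of the 16 libraries and bars from the lowest to the highest library. Bars that reach the lower edge hold a library at 0, and Sfrp4, Dkk2 and Sfrp2 stand highest, with mean levels of 216, 153 and 129.8 TPM.

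Of the 6 tested ligand genes, 1 fell at 4 h, and 1 fell and 1 rose at 8 h. For this and the other roles, the shares of all genes are 8.37% lower and 7.84% higher at 4 h. At 8 h they are 3.67% and 5%. Wnt5a (chromosome 14, 28504750 to 28527448, plus strand), the best known ligand of the branch without beta-catenin, had 28.9, 30.8, 35.9 and 29.8 CPM in the 4 CGRP libraries at 4 h, against 64.7, 49.8, 62.5 and 69.7 CPM in the PBS libraries. All CGRP libraries lay below all PBS libraries. The means were 31.4 ± 3.14 CPM after CGRP and 61.7 ± 8.45 CPM after PBS (SD, n = 4 each). The log2 fold change was -0.97 ± 0.15 (SE, edgeR adjusted p = 0.000120), with the smallest p among the members. The call held in all 23 alternatives.

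At 8 h Wnt5a had 46.3, 39.9, 45.1 and 37.5 CPM after CGRP, against 78.2, 59.7, 41.2 and 63.96 CPM after PBS. The groups differed by a log2 fold change of -0.53 ± 0.15 (edgeR adjusted p = 0.0279). PBS replicate 3 lay within the CGRP range, and the other PBS libraries lay above it. The call was lost without CGRP replicate 2 or 4 or without PBS replicate 1, 2 or 4 of that time, with values of -0.53 to -0.37 and adjusted p of 0.0515 to 0.152. An annotated antisense gene, Gm2670, overlaps exons of Wnt5a, and its 101 reads were 1.58% of the Wnt5a reads. Since the kit does not mark strand, reads from the pair cannot be told apart. The same holds for Rspo3 and Tcf7l1 among the other called members. Gm15401, antisense to Tcf7l1, had 14 reads, 0.387% of the Tcf7l1 reads. Gm48159, antisense to Rspo3, had no row of counts, so its share is not known.

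Wnt2 (chromosome 6, 17988940 to 18030585, minus strand), a ligand of the beta-catenin branch, rose at 8 h. It had 47.3, 19.4, 24.9 and 43.4 CPM after CGRP, against 14.1, 19.8, 15.95 and 11.02 CPM after PBS. This gave a log2 fold change of 1.15 ± 0.33 (edgeR adjusted p = 0.0408). CGRP replicates 1 and 4 were high, while replicate 2 lay below the highest PBS library, so the groups overlapped. Its call was lost on leaving out any of 10 libraries: CGRP 4 h replicate 3 or 4, PBS 4 h replicate 1, 3 or 4, CGRP 8 h replicate 1 or 4 and PBS 8 h replicate 1, 3 or 4 (0.94 to 1.19, adjusted p 0.0509 to 0.138). At 4 h Wnt2 had 16.7, 44.3, 21.6 and 24.7 CPM after CGRP, against 20.8, 13.9, 22.3 and 16.97 CPM after PBS, with CGRP replicate 2 alone far above the PBS libraries (0.54 ± 0.32, edgeR adjusted p = 0.300).

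The other tested ligand genes did not pass the test at either time. Wnt9a had 20.6 to 33.3 CPM after CGRP and 14.97 to 27.2 CPM after PBS at 4 h (0.56 ± 0.20, edgeR adjusted p = 0.0649). It passed without CGRP 4 h replicate 4, PBS 4 h replicate 1 or CGRP 8 h replicate 2 or 4 (0.57 to 0.78, adjusted p 0.0123 to 0.0458), and with no filter on low counts (adjusted p 0.00816). Wnt10b, known to hold back adipogenesis, had a log2 fold change of 1.15 ± 0.47 at 4 h (edgeR adjusted p = 0.100). It had 9.14, 3.14, 2.89 and 1.99 CPM in the CGRP libraries and 0.997, 2.08, 3.49 and 1.25 CPM in the PBS libraries. CGRP replicate 1 stood far above the others, and without it the value was 0.47 (adjusted p 0.562). The gene passed without PBS 4 h replicate 3 (1.57, adjusted p 0.0389). Wnt5b was at -0.22 ± 0.28 at 4 h and 0.13 ± 0.29 at 8 h. Wnt11, a ligand of the branch without beta-catenin, was at 0.09 ± 0.20 at 4 h and -0.14 ± 0.20 at 8 h.

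Among 12 tested receptor genes, 2 fell and 1 rose at 4 h, and 2 fell at 8 h. Fzd4 (chromosome 7, 89404355 to 89413134, plus strand), a Frizzled that binds Wnt ligands and also Norrin, had 62.5, 63.1, 62.9 and 63.3 CPM after CGRP at 4 h, against 85.9, 70.4, 84.9 and 95.9 CPM after PBS. The CGRP libraries were almost equal and all lay below the lowest PBS library, with a log2 fold change of -0.42 ± 0.12 (edgeR adjusted p = 0.0188). Without PBS 4 h replicate 4 the value was -0.35 (adjusted p 0.0727).

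At 8 h Fzd4 had 53.8, 59.5, 80.5 and 63.5 CPM after CGRP, against 99.6, 88.6, 103 and 124 CPM after PBS. Again the groups did not overlap, and the log2 fold change was -0.69 ± 0.12 (edgeR adjusted p = 0.00109). This was the smallest adjusted p of the members at 8 h and the call held without each library in turn. Leaving out the 4 libraries with the most detected genes gave -0.57 (adjusted p 0.0538). Fzd4 is also a receptor of endothelial cells, and the summed level of 11 endothelial markers at 8 h was 81.7 to 106 CPM after CGRP and 109 to 132 CPM after PBS. Nearly all of that sum was Tek (75.1 to 104 CPM after CGRP and 105 to 128 CPM after PBS), while Pecam1 and Cdh5 had at most 1.01 CPM at 8 h. Neither of the 2 endothelial markers tested passed edgeR's test at either time (0 at 4 h and 1 at 8 h had an unadjusted p under 0.05). Their part in the Fzd4 result was not tested.

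Fzd2 (chromosome 11, 102604396 to 102608058, plus strand), a receptor of Wnt5a among other ligands, had 7.72, 14.2, 9.42 and 8.64 CPM after CGRP at 4 h, against 19.2, 26.5, 14.6 and 11.6 CPM after PBS. CGRP replicate 2 lay above the lowest PBS library, and the log2 fold change was -0.85 ± 0.24 (edgeR adjusted p = 0.0169). Fzd2 lost its call without CGRP 4 h replicate 1 or 4 or PBS 4 h replicate 2 (-0.78 to -0.59, adjusted p 0.0627 to 0.101). At 8 h its values were 12.7 to 17.6 CPM after CGRP and 13.3 to 22.3 CPM after PBS (-0.22 ± 0.23, edgeR adjusted p = 0.648).

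Ror1 (chromosome 4, 100095791 to 100444765, plus strand), a tyrosine kinase-like receptor for Wnt5a, was the only member that rose at 4 h, with 18.3, 23.7, 29.1 and 31.4 CPM after CGRP and 18.7, 9.78, 20.1 and 16.8 CPM after PBS. CGRP replicate 1 lay within the PBS range and the other CGRP libraries above it. Ror1 rose by a log2 fold change of 0.65 ± 0.21 (edgeR adjusted p = 0.0383). This call was lost without CGRP 4 h replicate 2, 3 or 4 or PBS 4 h replicate 2 or 4 (0.47 to 0.70, adjusted p 0.0509 to 0.131) and with only the 2 groups of 4 h fitted (0.65, adjusted p 0.0653). At 8 h Ror1 had 18.3 to 33.03 CPM after CGRP and 24.6 to 32.7 CPM after PBS (-0.21 ± 0.21, edgeR adjusted p = 0.624). The mean was 16.3 ± 4.59 CPM in the PBS 4 h group, lower than in PBS 8 h (28.0 ± 3.46 CPM). It was 25.6 ± 5.87 CPM in CGRP 4 h and 24.4 ± 6.26 CPM in CGRP 8 h (SD). Ror2, the related receptor, lay near 0 at both times (-0.08 ± 0.20 at 4 h and -0.09 ± 0.20 at 8 h).

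Lrp6 (chromosome 6, 134446476 to 134566965, minus strand), the co-receptor of the beta-catenin branch, had 39.8, 45.8, 43.01 and 38.2 CPM after CGRP at 8 h, against 50.9, 53.2, 50.9 and 59.8 CPM after PBS. The groups did not overlap, and the log2 fold change was -0.36 ± 0.11 (edgeR adjusted p = 0.0439). The call was lost without any of 10 libraries: CGRP 4 h replicate 2, PBS 4 h replicate 1 or 4, CGRP 8 h replicate 1, 3 or 4 and each PBS 8 h replicate (-0.38 to -0.30, adjusted p 0.0524 to 0.160). At 4 h Lrp6 was at -0.20 ± 0.11, and its relative Lrp5 was at -0.41 ± 0.20 at 4 h and -0.38 ± 0.20 at 8 h, none past the test. The remaining receptor genes did not pass the test: at 4 h Fzd1, Fzd3, Fzd5, Fzd7, Fzd8 and the atypical receptor gene Ryk had log2 fold changes of -0.03 ± 0.21, -0.12 ± 0.48, -0.56 ± 0.48, -0.22 ± 0.21, -0.48 ± 0.56 and -0.08 ± 0.15, all below 0. At 8 h they were 0.03 ± 0.21, 0.08 ± 0.51, 0.39 ± 0.48, -0.29 ± 0.21, -0.14 ± 0.59 and 0.02 ± 0.15, in the same order.

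**Figure D3:**
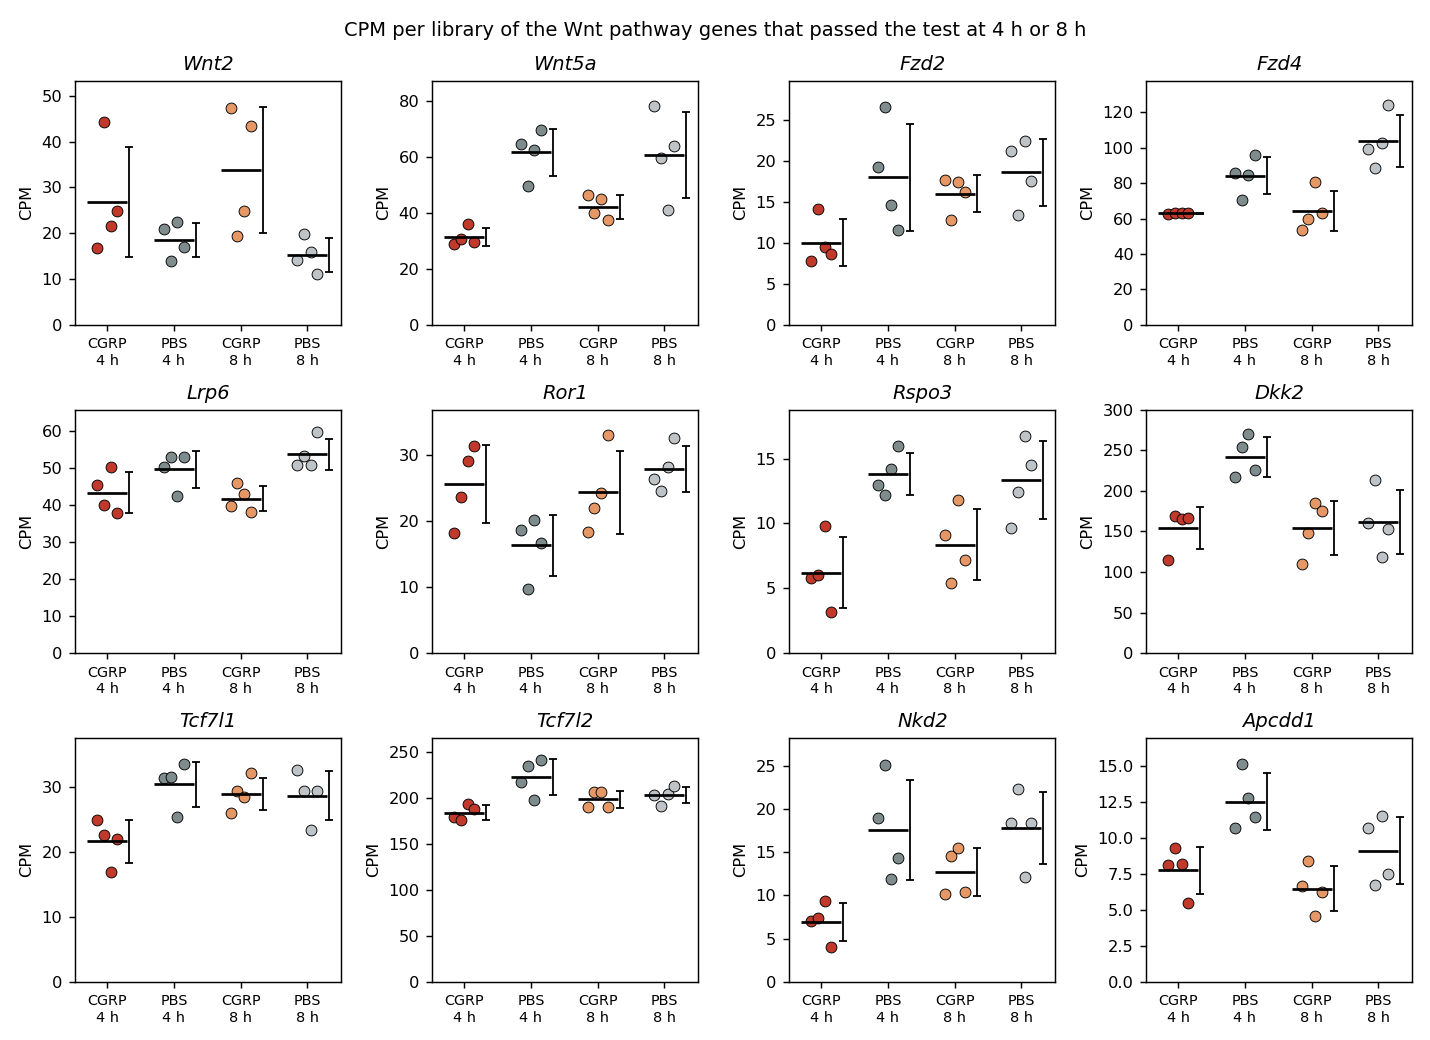
CPM in each library of the 12 genes that passed the test at 4 h or 8 h, with points for libraries, horizontal bars for group means and error bars of ± SD (n = 4); each panel starts at 0. In the Wnt5a panel the CGRP libraries of 4 h lie at 28.9 to 35.9 CPM, below the PBS libraries at 49.8 to 69.7 CPM.

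Of 9 tested secreted modulator genes, 2 fell at 4 h and none passed at 8 h (edgeR, with 4 at an unadjusted p under 0.05). DESeq2 called 1 at 8 h, Sfrp2. Their median log2 fold change was -0.65 at 4 h and -0.40 at 8 h, the lowest of the 5 roles at either time. R-spondins bind Lgr receptors and so keep Frizzleds at the cell surface, which strengthens a Wnt signal. Rspo3 (chromosome 10, 29452416 to 29535867, minus strand) had 5.79, 6.05, 9.80 and 3.19 CPM after CGRP at 4 h, against 12.97, 12.2, 14.2 and 15.9 CPM after PBS. The groups did not overlap, and the log2 fold change was -1.15 ± 0.27 (edgeR adjusted p = 0.00513), a call that held in all 23 alternatives. At 8 h it had 9.10, 5.39, 11.8 and 7.19 CPM after CGRP and 9.67, 12.4, 16.7 and 14.5 CPM after PBS, which overlapped (-0.66 ± 0.27, edgeR adjusted p = 0.128).

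Rspo2 had 0.203, 2.30, 2.89 and 0.532 CPM after CGRP and 6.98, 10.1, 5.16 and 4.69 CPM after PBS at 4 h. All CGRP libraries lay below all PBS libraries, but the gene just missed the threshold (-2.20 ± 0.73, edgeR adjusted p = 0.0513). DESeq2 gave -2.18 with an adjusted p of 0.00831. The call was also gained in edgeR without CGRP 4 h replicate 3 or CGRP 8 h replicate 1, 2 or 3 (-2.73 to -2.18, adjusted p 0.00347 to 0.0429). Rspo2 passed in edgeR, too, with upper-quartile scaling (adjusted p 0.0485), with no filter on low counts (0.0388) and with only the 2 groups of 4 h fitted (0.0239). At 8 h it had 0.910, 0.755, 8.44 and 1.53 CPM after CGRP and 3.94, 5.42, 5.01 and 4.84 CPM after PBS. Replicate 3 stood apart from the other CGRP libraries, and without it the log2 fold change at 8 h was -2.18 (adjusted p 0.0167), against -0.70 ± 0.69 with it (edgeR adjusted p = 0.617). Rspo1, with 0.726 to 2.89 CPM after CGRP and 0.625 to 1.35 CPM after PBS at 4 h, was at 0.96 ± 0.52 at 4 h and 1.03 ± 0.53 at 8 h and did not pass.

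Dkk2 (chromosome 3, 132085292 to 132180304, plus strand), a Dickkopf protein that binds Lrp5 and Lrp6, had 115, 169, 165 and 166 CPM after CGRP at 4 h, against 217, 254, 269.9 and 225 CPM after PBS. All CGRP libraries lay below all PBS libraries, with CGRP replicate 1 the lowest, and the log2 fold change was -0.65 ± 0.18 (edgeR adjusted p = 0.0206). The call was lost without CGRP 4 h replicate 1 or PBS 4 h replicate 2 or 3 (-0.62 to -0.52, adjusted p 0.0523 to 0.0585). At 8 h the groups lay over each other, with 110.2 to 185 CPM after CGRP and 119 to 214 CPM after PBS (-0.06 ± 0.18, edgeR adjusted p = 0.886). The mean of Dkk2 was 241 ± 24.8 CPM in the PBS 4 h group, higher than in PBS 8 h (162 ± 39.3 CPM). It was 154 ± 25.8 CPM in CGRP 4 h and 155 ± 33.3 CPM in CGRP 8 h (SD). Dkk3, a Dickkopf relative with other partners, was at -0.81 ± 0.31 at 4 h (edgeR adjusted p = 0.0900) and -0.19 ± 0.29 at 8 h. At 4 h it passed in DESeq2 (-0.80, adjusted p 0.0271) and without CGRP 4 h replicate 2 or PBS 4 h replicate 3 (-1.04 to -1.02, adjusted p 0.0111 to 0.0366).

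The secreted Frizzled-related proteins bind Wnt ligands outside the cell. Sfrp4, the most abundant, had 254, 220.4, 272 and 157 CPM after CGRP and 304, 476, 180.1 and 310.4 CPM after PBS at 4 h. It had 254, 178, 275 and 169 CPM after CGRP and 326, 457, 261 and 442 CPM after PBS at 8 h. The groups overlapped at both times, and neither value passed (-0.49 ± 0.29, edgeR adjusted p = 0.299 at 4 h and -0.76 ± 0.29, adjusted p = 0.135 at 8 h). Sfrp2 had 44.1, 28.03, 82.5 and 44.3 CPM after CGRP and 121, 175, 70.9 and 89.2 CPM after PBS at 8 h (-1.20 ± 0.42, edgeR adjusted p = 0.103). It passed without CGRP 8 h replicate 3 (-1.54, adjusted p 0.0464) and in DESeq2 (-1.19, adjusted p 0.0391).

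Sfrp1 had 28.7 to 37.5 CPM after CGRP and 41.2 to 47.4 CPM after PBS at 8 h, which did not overlap, without passing the test (-0.40 ± 0.16, edgeR adjusted p = 0.130). With only the 2 groups of 8 h fitted, it passed (-0.40, adjusted p 0.0413). At 4 h Sfrp2 was at -0.63 ± 0.41 and Sfrp1 at -0.20 ± 0.16. Wif1, another secreted Wnt-binding inhibitor, varied from 0 to 18.1 CPM between libraries, and its log2 fold changes of -2.57 ± 1.28 at 4 h and -0.38 ± 1.16 at 8 h had the largest SE of the members.

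Of 4 tested relay and transcription factor genes, 2 fell at 4 h and none passed at 8 h (edgeR, with 0 at an unadjusted p under 0.05, and 0 in DESeq2). Tcf7l2 (chromosome 19, 55741820 to 55933654, plus strand), a TCF factor that binds beta-catenin on target genes, had 179, 176, 193 and 188 CPM after CGRP at 4 h, against 217, 235, 198 and 241 CPM after PBS. The groups did not overlap, and the difference was small (-0.28 ± 0.08, edgeR adjusted p = 0.0153). The call was lost without CGRP 4 h replicate 1 or 2 or PBS 4 h replicate 2 or 4 (-0.25 to -0.23, adjusted p 0.0528 to 0.0629) and with no filter on low counts (-0.27, adjusted p 0.0961). At 8 h its level was 189.7, 206, 207 and 191 CPM after CGRP and 204, 192, 204 and 213 CPM after PBS (-0.03 ± 0.08).

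Tcf7l1 (chromosome 6, 72626378 to 72789254, minus strand), a TCF factor known mainly as a repressor, had 24.98, 22.6, 16.96 and 21.9 CPM after CGRP at 4 h, against 31.3, 31.5, 25.4 and 33.5 CPM after PBS. The groups did not overlap. The log2 fold change was -0.49 ± 0.14 (edgeR adjusted p = 0.0177). This call was lost without CGRP 4 h replicate 3 or PBS 4 h replicate 4 (-0.44 to -0.38, adjusted p 0.0559 to 0.0698). At 8 h Tcf7l1 was at 0.01 ± 0.14. The beta-catenin gene Ctnnb1 had 95.6 to 108 CPM after CGRP and 99.2 to 119 CPM after PBS at 4 h and did not pass at either time (-0.10 ± 0.09 at 4 h and 0.05 ± 0.09 at 8 h). Axin1, the scaffold of the complex that degrades beta-catenin, was at -0.29 ± 0.15 at 4 h (edgeR adjusted p = 0.196) and 0.26 ± 0.15 at 8 h (adjusted p = 0.309).

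Of 4 tested feedback and target genes, 2 fell at 4 h and none passed at 8 h (edgeR, with 1 at an unadjusted p under 0.05, and 0 in DESeq2). Nkd2 (chromosome 13, 73818534 to 73847631, minus strand), a Naked cuticle protein that binds Dishevelled and dampens the signal, had 7.01, 7.38, 9.30 and 3.99 CPM after CGRP at 4 h, against 18.95, 25.1, 11.9 and 14.3 CPM after PBS. The highest CGRP library lay below the lowest PBS library. The log2 fold change of -1.34 ± 0.26 was the lowest of the called members (edgeR adjusted p = 0.00105). The call held in all 23 alternatives. At 8 h Nkd2 had 10.2, 14.6, 15.5 and 10.4 CPM after CGRP and 18.3, 22.3, 12.2 and 18.4 CPM after PBS, which overlapped (-0.49 ± 0.25, edgeR adjusted p = 0.252).

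Apcdd1 (chromosome 18), a membrane protein that inhibits Wnt signals at the receptor, had 8.12, 9.31, 8.17 and 5.45 CPM after CGRP at 4 h, against 10.7, 15.2, 12.8 and 11.5 CPM after PBS. The groups did not overlap, and the log2 fold change was -0.69 ± 0.23 (edgeR adjusted p = 0.0410). This call, the nearest to the threshold at 4 h, was lost without any of 10 libraries: CGRP 4 h replicate 1, 3 or 4, each PBS 4 h replicate, CGRP 8 h replicate 1 or 4 and PBS 8 h replicate 1 (-0.74 to -0.55, adjusted p 0.0503 to 0.152). At 8 h it was at -0.49 ± 0.23 (edgeR adjusted p = 0.214). Znrf3 encodes a ubiquitin ligase that removes Frizzleds from the membrane. It had 30.6, 39.2, 47.2 and 43.9 CPM after CGRP and 43.5, 40.1, 39.4 and 40.4 CPM after PBS at 4 h. The groups overlapped (-0.02 ± 0.14), and at 8 h it was at 0.04 ± 0.14. Nkd1 was at -0.18 ± 0.35 at 4 h and -0.10 ± 0.33 at 8 h. Axin2, the feedback gene most often read as a target of the beta-catenin branch, had 119 reads over the 16 libraries (at most 3.49 CPM) and lay below the filter on low counts, so it was not tested.

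Some markers of other cells were also lower 4 h after CGRP. None of the 2 endothelial, 3 myeloid, 3 satellite cell and 8 myofibre markers tested passed edgeR's test at 4 h. Of these, 1 myeloid marker had an unadjusted p under 0.05. The summed level of 9 pericyte and smooth muscle markers was 32.2 to 69.1 CPM after CGRP and 72.2 to 137 CPM after PBS at 4 h, with no overlap. Of the 6 tested, 2 fell: Cspg4 (-1.20 ± 0.20, edgeR adjusted p = 0.000663) and Myh11 (-2.60 ± 0.68, adjusted p = 0.0111). Rgs5 and Tagln, defining genes of pericytes and smooth muscle, were at most 1.25 and 0.258 CPM in any library of that time. The summed level of 7 tenocyte markers was 299.7 to 852 CPM after CGRP and 688 to 1593 CPM after PBS at 4 h. Of the 6 tested, 1 fell (Comp, -1.08 ± 0.34, adjusted p = 0.0494), while Scx was at most 0.305 CPM. Of the 12 mSC markers themselves, 7 fell and 1 rose at 4 h, where 8.37% of all genes fell and 7.84% rose. At 8 h 4 fell and 1 rose, where 3.67% of all genes fell and 5% rose. At both times 11 of the 12 had a log2 fold change below 0. Their median was -0.34 at 4 h and -0.19 at 8 h, beside -0.28 and -0.14 over the Wnt members. The part of these markers in the Wnt pathway results was not tested.

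**Figure D4:**
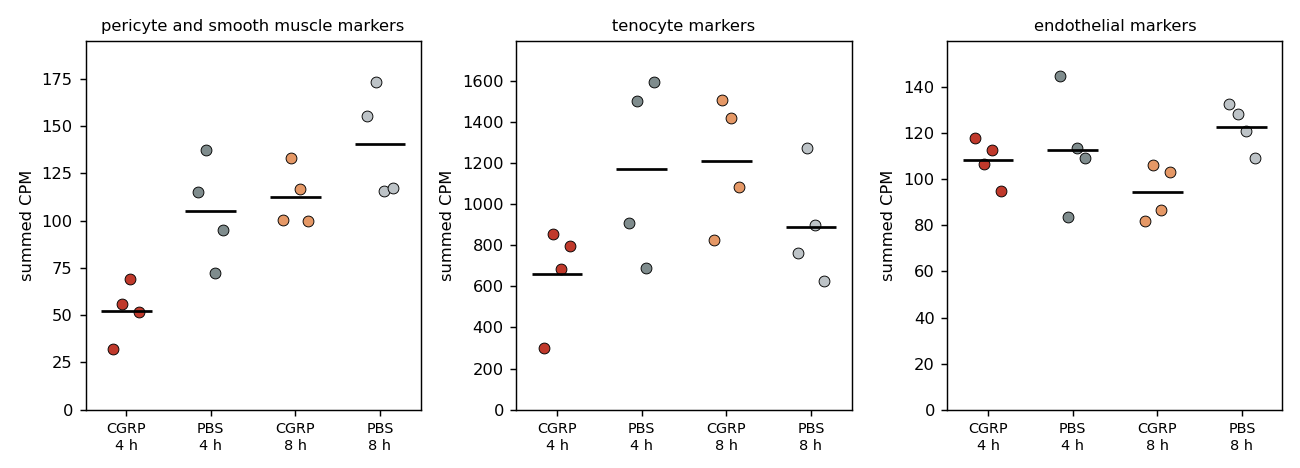
Summed CPM of pericyte and smooth muscle markers (left), tenocyte markers (middle) and endothelial markers (right) in each library, with horizontal bars for group means and axes from 0. At 4 h the pericyte and smooth muscle sum lies at 32.2 to 69.1 CPM after CGRP and 72.2 to 137 CPM after PBS, and at 8 h the endothelial sum lies at 81.7 to 106 CPM after CGRP and 109 to 132 CPM after PBS.

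At 8 h the pericyte and smooth muscle sum was 99.7 to 133 CPM after CGRP and 116 to 173 CPM after PBS, and the tenocyte sum 827 to 1505 CPM after CGRP and 624 to 1271 CPM after PBS, with no call in either list in edgeR (2 pericyte and smooth muscle markers and 0 tenocyte markers had an unadjusted p under 0.05). Of the satellite cell markers 1 of 3 tested rose at 8 h (Sdc4, 0.86 ± 0.19, adjusted p = 0.0122), and 1 of 8 tested myofibre markers fell. Of 7 tested Schwann cell markers 1 rose and 1 fell at 4 h. Erythroid genes summed to at most 47.6 CPM.

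Whether the response to CGRP differed between 8 h and 4 h was tested directly. No member passed this test, by edgeR or by DESeq2, with 7 at an unadjusted p under 0.05 in edgeR, while 1.12% of all genes passed. Ror1 had the smallest p, with a CGRP effect at 8 h minus that at 4 h of -0.86 ± 0.30 (edgeR adjusted p = 0.163). Wnt5a was at 0.45 ± 0.21 (adjusted p = 0.324) and Dkk2 at 0.59 ± 0.25 (adjusted p = 0.292). With no filter on low counts Ror1 (-0.85, adjusted p 0.0190) and Dkk2 (0.60, adjusted p 0.0187) passed. A loss of the call between the times is therefore not shown to be a difference between them for any member in edgeR with the filter.

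Within a treatment, the levels at 8 h were set against those at 4 h. After PBS no member passed in edgeR (4 at an unadjusted p under 0.05), while DESeq2 called 2 and 0.516% of all genes passed in edgeR. The smallest p was that of Ror1, with 26.3, 24.6, 28.3 and 32.7 CPM at 8 h and 18.7, 9.78, 20.1 and 16.8 CPM at 4 h (0.78 ± 0.21, edgeR adjusted p = 0.100). Dkk2 had 160.1, 214, 119 and 154 CPM at 8 h and 217, 254, 269.9 and 225 CPM at 4 h after PBS (-0.58 ± 0.18, edgeR adjusted p = 0.160). For both genes no PBS library of one time lay within the range of the other.

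After CGRP, 1 of 35 members rose between the times, Nkd2 (0.87 ± 0.26, edgeR adjusted p = 0.0424), and none fell, against 7.26% of all genes in both directions. Nkd2 had 10.2, 14.6, 15.5 and 10.4 CPM at 8 h and 7.01, 7.38, 9.30 and 3.99 CPM at 4 h after CGRP, with no overlap. No member was called without CGRP 4 h replicate 1 or 4, CGRP 8 h replicate 2 or 3 or PBS 8 h replicate 1 or 4, and 2 were called without CGRP 4 h replicate 2, PBS 4 h replicate 3 or PBS 8 h replicate 3. These comparisons share their libraries with those of CGRP against PBS, so the same 4 libraries enter the Nkd2 result at 4 h.

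The pathway beyond the 42 genes was followed with a list of 141 genes for further ligands and receptors, ligand secretion, cytoplasmic relay, nuclear cofactors, the planar polarity and calcium branch and target genes, of which 138 were in the table and 108 were tested. At 4 h 4 rose and 15 fell (3.7% and 13.9%, median log2 fold change -0.04), where 7.84% of all genes rose and 8.37% fell. At 8 h 6 rose and 9 fell (5.56% and 8.33%, median -0.05), where 5% of all genes rose and 3.67% fell. The same shares of all genes stand beside the counts of each smaller list below. These lists, too, were chosen with earlier results of these data known.

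Of 8 tested ligand secretion genes, 1 fell and 1 rose at each time. Wls, the carrier that brings Wnt ligands to the cell surface, had 171 ± 16.1 CPM after CGRP and 249.9 ± 25.2 CPM after PBS at 4 h (-0.54 ± 0.09, edgeR adjusted p = 0.000306). It had 205 ± 19.1 CPM after CGRP and 262 ± 18.1 CPM after PBS at 8 h (-0.35 ± 0.09, adjusted p = 0.0181). Tmed5, a cargo receptor of early secretion, rose at both times (0.54 ± 0.12 at 4 h and 0.78 ± 0.12 at 8 h). The other 6 tested secretion genes did not pass. Of 17 tested further ligands, receptors and modulators, 3 fell at 4 h: the glypican gene Gpc4 (-0.43 ± 0.09), the co-receptor gene Ptk7 (-0.99 ± 0.24) and Lrp4 (-0.62 ± 0.21). At 8 h 4 of the 17 fell and 1 rose. Ptk7 was at 5.75 ± 0.751 CPM after CGRP and 12.2 ± 2.73 CPM after PBS (-1.09 ± 0.23, adjusted p = 0.00509). Lrp4 was at -0.73 ± 0.20 and the glypican gene Gpc3 at -0.37 ± 0.11.

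Inside the cell, 2 of 26 relay genes fell at 4 h: Gsk3b (-0.32 ± 0.09), the kinase that marks beta-catenin for degradation, and Apc2 (-0.94 ± 0.29), no larger a share than the 8.37% of all genes that fell. The phosphatase gene Ppp2ca rose at 8 h (0.60 ± 0.14). Of 16 nuclear cofactors 1 fell at 4 h and 4 at 8 h, where 8.37% and 3.67% of all genes fell. The co-repressor gene Tle2 had 10.5 ± 2.88 CPM after CGRP and 21.1 ± 2.70 CPM after PBS at 4 h (-1.01 ± 0.20, edgeR adjusted p = 0.00117) and was at -0.71 ± 0.19 at 8 h. At that time its relatives Tle1 (-0.69 ± 0.19) and Tle3 (-0.55 ± 0.16) fell as well. In the planar polarity and calcium branch 3 of 25 rose and 4 fell at 4 h, where 7.84% of all genes rose and 8.37% fell. None passed at 8 h (edgeR, 2 at an unadjusted p under 0.05). Prkca, a calcium-dependent kinase, rose at 4 h, with 49.8 ± 6.38 CPM after CGRP and 26.7 ± 3.67 CPM after PBS (0.90 ± 0.13, adjusted p = 4.61e-05). The formin gene Daam2 (-1.10 ± 0.17) and the polarity gene Prickle2 (-0.51 ± 0.13) fell.

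Of 16 tested further target genes, 4 fell and none rose at 4 h, and 3 rose and none fell at 8 h. At 4 h the Notch ligand gene Jag1 was at -0.50 ± 0.12, the growth factor gene Bmp4 at -0.39 ± 0.11 and the inhibitor gene Id2 at -0.50 ± 0.15. At 8 h the AP-1 gene Fosl1 had 29.2 ± 17.8 CPM after CGRP and 1.65 ± 0.412 CPM after PBS (4.13 ± 0.76, edgeR adjusted p = 0.00600). The urokinase receptor gene Plaur (1.95 ± 0.41) and the hyaluronan receptor gene Cd44 (1.00 ± 0.25) rose too. At 4 h these 3 genes were at 1.92 ± 0.63, 0.98 ± 0.39 and 0.61 ± 0.25, also above 0 but not past the test (edgeR adjusted p = 0.0558, 0.110 and 0.122). None of the 16 passed edgeR's test of the difference between the times (3 at an unadjusted p under 0.05). Each of these genes is also known to answer to other pathways.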

How the data were processed

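The deposited values are whole-number counts of reads for each gene. The authors obtained them with STAR 2.5.4 and featureCounts (version not given) on mm10, per the submitters' processing notes. The settings for multi-mapped reads, strand and annotation were not given in the sources used here. Per the labels, oligo(dT)-primed cDNA was amplified by PCR and made into Nextera XT libraries, which do not mark strand, read as pairs of 25 bases. The labels mention no molecular identifiers. All 16 columns were used, and every row names a gene. No 2 replicates were the same library: over 24 pairs within groups, chi-square over degrees of freedom was 6.52 to 22.7.

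Counts were scaled by TMM and filtered with filterByExpr in edgeR 4.0.16 (R 4.3.3), and the quasi-likelihood fit took all 16 libraries with a mean for each group (12 residual degrees of freedom, robust). Tests were two-sided, with Benjamini-Hochberg adjustment over 13949 genes, and rose and fell stand for an adjusted p under 0.05. The biological coefficient of variation was 17.4%. CPM uses TMM-scaled totals, and TPM uses GENCODE M21 exon lengths (GRCm38), to which 49439 of 52997 symbols and all 42 members matched. SE belongs to log2 fold changes and SD to CPM. At these depths 1 read was 0.101 to 0.153 CPM.

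Alternatives were DESeq2 1.42.0, its size factors or upper-quartile scaling in edgeR, no filter, a replicate block, only the 2 groups compared, and leaving out each library or the 4 libraries with the most detected genes. Promoter sequences are from RefSeq. All 42 members are named; full values are given for members called in CGRP against PBS and for the most abundant of each role, and at most 3 called genes per further list and time. Members and lists were chosen with earlier results of these data known.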

Additional observations from a re-analysis of the deposited data

Results flagged for a closer look

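In 7 of the 140 groups of 4 libraries examined (35 genes in 4 groups), 1 library stood apart from the other 3 by Dixon's 95% limit, where chance gives about 1 in 20, or 7. After CGRP at 4 h, replicate 1 had 9.14 CPM of Wnt10b, against 1.99 to 3.14 CPM in the others, and 115 CPM of Dkk2, against 165 to 169 CPM. After CGRP at 8 h, replicate 2 had 7.87 CPM of Wnt5b, against 4.13 to 4.37 CPM, and replicate 3 had 8.44 CPM of Rspo2, against 0.755 to 1.53 CPM, and 19.6 CPM of Axin1, against 23.0 to 23.7 CPM. After PBS at 8 h, replicate 4 had 14.9 CPM of Wnt9a, against 19.5 to 20.1 CPM, and 23.4 CPM of Axin1, against 16.8 to 17.3 CPM.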

How the results depend on the processing

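No called value changed sign: of 2379 values recomputed for 105 member results, 2283 stayed on their side of the threshold, 70 lost a call, 26 gained one and 0 reversed. Of 14 called values at 4 h or 8 h, 3 held in all 23 alternatives (Wnt5a, Nkd2 and Rspo3 at 4 h). The number of members called at 4 h was 10, 5 to 12 without each library in turn, and 4 without the 4 libraries with the most detected genes. At 8 h it was 4, 1 to 5 without each library, 2 with no filter on low counts, 2 with the replicate block and 0 without those 4 libraries. For the difference between the times it was 0, 0 without each library and 2 with no filter. For 8 h against 4 h after PBS it was 0, 0 to 1 without each library, 2 with no filter, 1 with the replicate block and 2 in DESeq2. After CGRP it was 1, 0 to 2 without each library, 3 with no filter, 3 with the replicate block, 3 in DESeq2, 2 without the 4 libraries and 2 with only the groups compared. The cause was not tested, apart from the fewer libraries in the fits that leave some out.

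Over all genes, 2262 were called at 4 h (1481 to 2245 without each library) and 1210 at 8 h (577 to 1297, and 191 without the 4 libraries). The difference gave 156 (80 to 196, 456 with no filter, 425 in DESeq2 and 63 without the 4 libraries). Time after PBS gave 72 (17 to 280, 422 with no filter, 321 in DESeq2 and 131 with only those groups), and time after CGRP 1012 (666 to 1014). Replicate numbers do not pair the samples: the correlations of same-numbered libraries ran from -0.056 to 0.088. With the replicate block 13 members were called at 4 h, with Rspo2 (adjusted p 0.0144), Wnt9a (0.0296) and Dkk3 (0.0491) gained, and at 8 h Wnt2 (0.0854) and Lrp6 (0.0679) missed the threshold. Depth limits the low members: Axin2 and the 6 under the read rule lay below the filter.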
